A study of Sus scrofa with 12 samples.

Results

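The genes described here are the receptor LGR5 and the other parts of the R-spondin system in sow endometrium, the inner lining of the uterus. They are 10 of the 20674 genes in the expression table, found by their symbols: the ligands RSPO1, RSPO2, RSPO3 and RSPO4, the receptors LGR4, LGR5 and LGR6, the ubiquitin ligases ZNRF3 and RNF43, and the tetraspanin TSPAN8. LGR5 was selected on its measured induction in these same libraries, so its values are given as a description with no test in any comparison. TSPAN8 was included because its annotated span overlaps that of LGR5, and it is tested like the other members, although its choice followed from that of LGR5.

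Landrace × Yorkshire sows received 1 of 4 gestation diets from breeding until day 114, and poly(A) RNA of the endometrium was sequenced in 12 libraries, 3 per group. The basal group (L − N) received 3.73% crude fiber without N-carbamylglutamate (NCG), an activator of the body's own arginine synthesis. The L + N group received 3.73% crude fiber with 0.05% NCG, the H − N group 7.46% crude fiber without NCG, and the H + N group 7.46% crude fiber with 0.05% NCG. The labels do not say that each library came from a separate sow, so the p-values measure only the spread between these libraries, which may in part be technical.

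In the Wnt pathway, secreted Wnt proteins bind Frizzled receptors and LRP co-receptors and stabilize beta-catenin, which then switches on target genes. ZNRF3 and RNF43 sit in the cell membrane and mark Frizzled receptors for removal, which lowers the response to Wnt. R-spondins bind LGR4, LGR5 or LGR6 together with ZNRF3 or RNF43 and clear the ligase from the membrane, so that Frizzled receptors stay and the Wnt response is stronger. LGR5 is best known as a marker of stem cells in intestinal crypts and hair follicles, is itself a Wnt target, and is expressed in uterine epithelium.

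Of the 10 members, 8 had enough reads to pass the filter on low counts, and 15351 genes passed it in all. RSPO2 and RSPO4 did not pass and were not tested. A gene was called changed at an adjusted p under 0.05 with a log2 fold change beyond 1 in either direction. The p-values came from edgeR's quasi-likelihood test, adjusted by Benjamini-Hochberg over all 15351 genes. Levels within a gene are in CPM, its reads scaled to a common library total. Levels between genes are compared only in FPKM, which also divides by gene length. The 3 comparisons against L − N share the same 3 basal libraries and are not independent of each other.

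Total counts were between 14369781 and 19309724 per library. The epithelial marker genes were present in every library (8 of 9 listed genes in the table), with summed levels of 1009 to 2309 CPM. Of the 5 listed trophoblast genes, CYP19A1 was at 0 in all 12 libraries. The sum of the list was 6.69 to 13.7 CPM in L − N and 9.71 to 17.7 CPM elsewhere. Of the 3 tested, 2 were higher in H + N than in L − N, and ELF5 was called (log2 value 1.59, edgeR adjusted p = 0.0432). Its means were low, at 0.755 CPM in L − N and 2.29 CPM in H + N, and 3.58% of all genes were called there. Pairs of libraries within a group differed by a chi-square per gene of 23.3 to 99.8. The 2 highest values in L − N, 99.8 and 75.1, both involved L − N replicate 1, and H − N replicate 3 (80.9 and 68.3) and H + N replicate 3 (49.5 and 81.9) also stood apart from their groups. In L − N replicate 1 the summed leukocyte markers were 490 CPM, against 1508 and 1464 CPM in the other L − N libraries, so results against L − N are also given without it where a call changes. The labels name no batch.

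LGR5 was low in the basal group and many times higher in each of the other groups. Its levels were 0.955, 2.01 and 1.28 CPM in the L − N libraries and 23.1, 11.5 and 29.4 CPM in the L + N libraries. They were 48.1, 37.3 and 19.2 CPM in H − N and 66.0, 8.96 and 66.9 CPM in H + N. Every library of the 3 supplemented groups stood above every basal library, and the lowest of them was H + N replicate 2.

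**Figure D1:**
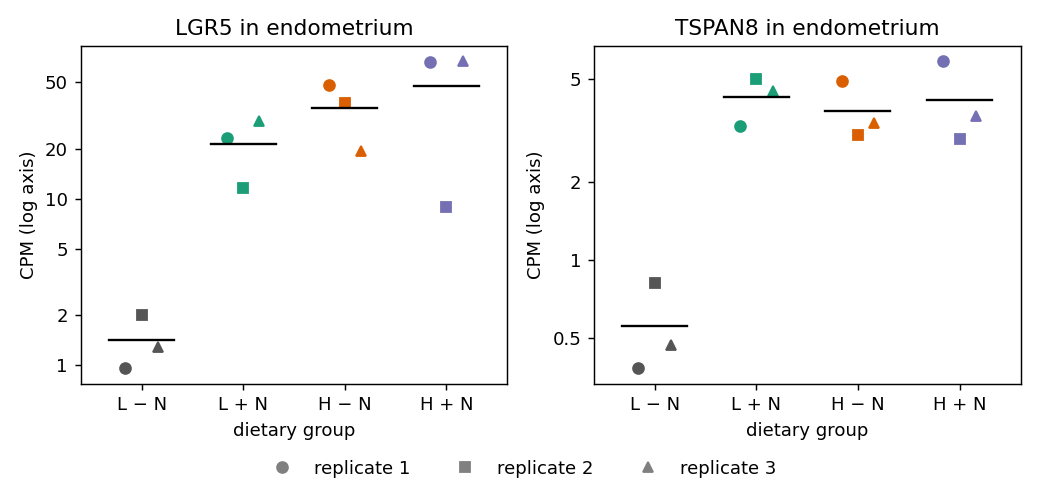
Levels of LGR5 (left) and TSPAN8 (right) in each endometrium library, in CPM on a log axis, by dietary group. Symbols mark the replicate and horizontal lines the group mean of 3 libraries; both genes lie lowest in L − N, and LGR5 in H + N replicate 2 (8.96 CPM) lies far below the other 2 H + N libraries.

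The group means of LGR5 were 1.41 ± 0.539 CPM (SD, n = 3) under L − N, 21.4 ± 9.08 under L + N, 34.9 ± 14.6 under H − N and 47.3 ± 33.2 under H + N. The order of the means was thus H + N, H − N, L + N and L − N. Only the last step in that order separated the libraries, since the CPM ranges of H + N and H − N overlapped, as did those of H − N and L + N. Against L − N the fitted log2 fold change was 5.05 (SE 0.766, 33.2-fold) under H + N, 3.91 (SE 0.744, 15.0-fold) under L + N and 4.62 (SE 0.757, 24.55-fold) under H − N.

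By log2 fold change against L − N, LGR5 ranked 7 from the top of 15351 genes under H + N, 6 under L + N and 12 under H − N. These ranks are what the gene was selected on. The basal level rested on few reads, with 15, 32 and 19 counts in the L − N libraries against 165 to 1091 counts in the others. Leaving out 1 library at a time moved the H + N value between 4.72, without H + N replicate 1, and 5.54, without H + N replicate 2.

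Among the supplemented groups the differences in LGR5 were smaller, and the ranges overlapped in each pair. The log2 difference was 0.44 (SE 0.608) for H + N against H − N, 1.15 (SE 0.617) for H + N against L + N and 0.71 (SE 0.614) for H − N against L + N. In the pooled contrasts, LGR5 was 2.88 higher on the log2 scale with high fiber (SE 0.486) and 2.17 higher with NCG (SE 0.478). The fiber by NCG interaction was −3.47 (SE 0.949), which means that both supplements together gave less than the sum of their separate log2 changes.

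Per unit of gene length, LGR5 moved from below most of the other members to among the highest. Its mean FPKM was 0.349 under L − N, 5.79 under L + N and 9.12 under H − N, and the H + N libraries had 17.1, 2.41 and 16.6 FPKM. LGR4, the broadly expressed receptor of the family, had 14.4, 18.7, 23.7 and 19.2 FPKM in the same order of groups. LGR4 therefore had the higher group mean of the pair in all 4 groups, yet LGR5 exceeded LGR4 in H + N replicate 1 and H + N replicate 3.

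LGR5 varied widely between libraries of the same group. Its biological coefficient of variation was 0.521, higher than that of 93.1% of the genes tested. LGR6 had 0.696, higher than 97.4% of genes, and RSPO3 0.427. LGR4, TSPAN8, RSPO1, RNF43 and ZNRF3 lay between 0.272 and 0.354.

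Summed marker levels of several cell types also differed between the groups, with ranges that overlapped for some. These sums were not tested. In bulk tissue, fewer cells of a type and less RNA per cell cannot be told apart. Summed epithelial markers were 1009 to 1482 CPM under L − N, 1427 to 1492 under L + N, 1536 to 2309 under H − N and 1197 to 1330 under H + N. Set against 1000 CPM of these epithelial markers, LGR5 was at 0.695 to 1.35 CPM in L − N and at 6.74 to 55.1 CPM in the other libraries, so the ranges stayed apart on that scale. Set against ciliated epithelium markers they overlapped, with 42.3 CPM in L − N replicate 2 and 37.6 CPM in H + N replicate 2. They overlapped through the same libraries against red blood cell markers (32.2 and 30.7 CPM), and stayed apart against the other 6 lists of markers. Against dividing cell markers the gap was narrow, with 27.4 CPM in L − N replicate 3 and 31.4 CPM in H + N replicate 2. LGR5 was selected on its induction in these same libraries, so these ranges are a description and decide nothing about cell content.

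Markers of dividing cells were lowest under L − N, at 46.5 to 146 CPM, against 271 to 382 under L + N, 153 to 201 under H − N and 250 to 347 under H + N. Leukocyte markers reached 490 to 1508 CPM in L − N and 353 to 690 CPM over the other groups. Smooth muscle markers were 1595 to 5052 CPM in L − N and 789 to 1538 CPM elsewhere. Their part in the LGR5 and TSPAN8 results was not tested.

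TSPAN8, a 4-pass membrane protein of epithelial cells, rose in all 3 groups against L − N. Its levels were 0.382, 0.815 and 0.470 CPM in L − N and 3.30, 5.01 and 4.51 CPM in L + N. They were 4.92, 3.05 and 3.38 CPM in H − N and 5.87, 2.93 and 3.62 CPM in H + N. All 9 libraries of the supplemented groups were above the 3 basal ones, and the supplemented groups overlapped each other. With only 6, 13 and 7 counts in the basal libraries, TSPAN8 passed the filter on low counts through the supplemented groups, where it is high. Its calls are read with that limit, since the filter and the comparisons against L − N draw on the same difference.

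In H + N against L − N, TSPAN8 rose by 2.87 on the log2 scale (SE 0.412, 7.33-fold, edgeR adjusted p = 0.0136). It was the only one of the 7 tested members called, where 3.58% of all genes were called. Groups did not overlap for TSPAN8 and RSPO1, 2 of the 7, against 28% of all genes. The call was lost without L − N replicate 3 (log2 value 2.77, edgeR adjusted p = 0.0719) and without H + N replicate 1 (2.52, edgeR adjusted p = 0.0524), fits in which 4 and 1 of all genes were called.

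In L + N against L − N, TSPAN8 rose by 2.92 (SE 0.412, 7.58-fold, edgeR adjusted p = 0.00818) and stayed called when any 1 library was left out. It was again the only one of 7 members called, where 3.99% of all genes were called, and the only one of the 7 whose groups did not overlap, against 35.3% of all genes. In H − N against L − N it rose by 2.75 (SE 0.412, 6.73-fold, edgeR adjusted p = 0.0162). This too was 1 of 7 members, where 2.91% of genes were called, and the groups of 2 members, TSPAN8 and RSPO1, did not overlap, against 25.4% of all genes. That call was lost without L − N replicate 3 (log2 value 2.65, edgeR adjusted p = 0.0836) and without H − N replicate 1 (2.51, edgeR adjusted p = 0.0552), fits in which 6 and 0 of all genes were called.

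Averaged over both fiber levels, the NCG effect on TSPAN8 was 1.52 on the log2 scale (SE 0.273, edgeR adjusted p = 0.0107), and the call held in all 12 fits that left out 1 library. This average joined the 2.92 on low fiber with 0.12 on high fiber (H + N against H − N, SE 0.362, edgeR adjusted p = 0.947). That high-fiber value changed sign without H + N replicate 1 (−0.225) and without H − N replicate 2 (−0.0103). No other member was called for NCG, where 1.8% of all genes were. The fiber effect on TSPAN8 was 1.35 (SE 0.272) and missed the threshold in edgeR (adjusted p = 0.0678). The interaction was −2.80 (SE 0.544, edgeR adjusted p = 0.209). The L + N and H − N libraries all lay within the range of H + N. The libraries with NCG overlapped those without it, through H − N.

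**Figure D2:**
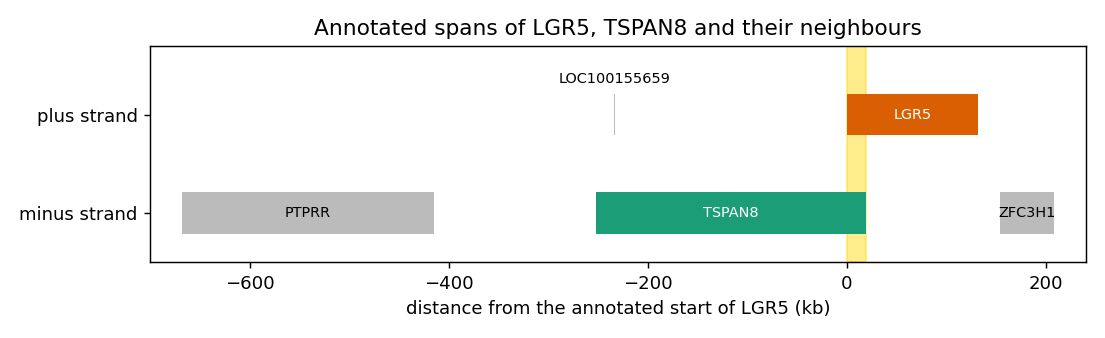
Annotated gene spans around LGR5 on pig chromosome 5, drawn as distance in kb from the start of LGR5, with genes of the plus strand above and of the minus strand below. The shaded 19532 bp are shared by the 5′ ends of LGR5 and TSPAN8 on opposite strands.

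LGR5 and TSPAN8 lie head to head on chromosome 5 of the Sscrofa11.1 assembly. LGR5 occupies chr5:35463257-35595234 on the plus strand and TSPAN8 chr5:35210744-35482788 on the minus strand. They share 19532 bp, which is 14.8% of the LGR5 span and 7.18% of the TSPAN8 span. TSPAN8 also overlaps LOC100155659 on the other strand over 1115 bp. The exons inside the shared stretch were not analysed here.

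The libraries were made with a strand-specific kit, but the strand setting of the counting is not given in the sources used here, so reads of one gene counted for the other cannot be told apart. TSPAN8 had 6, 13 and 7 counts in L − N and 44 to 95 counts in the other libraries. The number of LGR5 reads per TSPAN8 read was 2.46 to 2.71 in L − N and 2.30 to 18.5 elsewhere. In H + N this ratio was 11.2, 3.06 and 18.5 in replicates 1, 2 and 3. Whether reads of one gene add to the counts of the other was not tested.

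The length over which TSPAN8 was counted was 15300 bp, against 3864 bp for LGR5. Per length, TSPAN8 was low in every group, with a mean FPKM of 0.0347 under L − N, 0.292 under L + N, 0.248 under H − N and 0.270 under H + N. LGR5 was above it in each group.

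Among the ligands, RSPO1 was lower with high fiber. RSPO1, at chr6:93664839-93690328, encodes a secreted activator of LGR signaling. Its levels were 7.58, 5.77 and 5.10 CPM in L − N and 6.26, 7.39 and 9.55 CPM in L + N, the low-fiber groups. They were 3.11, 2.22 and 4.62 CPM in H − N and 3.82, 2.50 and 3.92 CPM in H + N. All 6 high-fiber libraries were below all 6 low-fiber libraries, a separation that 0.886% of all genes showed.

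The fitted fiber effect on RSPO1 was −1.03 on the log2 scale (SE 0.228), which missed the threshold in edgeR (adjusted p = 0.0711). DESeq2 gave −1.05 with an adjusted p of 0.000926. Leaving out 1 library at a time gave −1.19 to −0.93 with edgeR adjusted p between 0.0381 and 0.165. The edgeR test called 0 of the 7 members for fiber, where 0.0261% of genes were called. At an unadjusted p under 0.05 there were 2 (RSPO1 and TSPAN8), and DESeq2 called the same 2. Over all genes, 19.5% had an unadjusted p under 0.05 for fiber, and DESeq2 called 290 genes.

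In the separate comparisons RSPO1 had log2 values of −0.85 under H + N (SE 0.322, edgeR adjusted p = 0.116) and −0.89 under H − N (SE 0.323, edgeR adjusted p = 0.123) against L − N, and of 0.33 under L + N (SE 0.315, edgeR adjusted p = 0.532). Against L + N it was at −1.18 in H + N (edgeR adjusted p = 0.910) and −1.22 in H − N (edgeR adjusted p = 0.126). The groups did not overlap in either comparison, where 11% and 29% of all genes did not. RSPO1 was the only one of the 7 members whose groups stood apart in them.

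RSPO3, the ligand with the highest mean FPKM of the family (3.10 over the 12 libraries, against 2.20 for RSPO1), was not called in any comparison. Its levels were 4.27, 1.82 and 2.42 CPM under L − N, 2.47, 2.91 and 1.44 under L + N, 2.18, 4.23 and 1.52 under H − N, and 3.96, 1.90 and 1.59 under H + N. All 4 groups overlapped. The log2 difference of H + N from L − N was −0.19 (SE 0.508, edgeR adjusted p = 0.842).

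Counts of RSPO2 were under the floor of 3 per library, and those of RSPO4 were at or near it outside 2 basal libraries. RSPO2 had at most 2 counts in any library and 0 in all L − N and H + N libraries, so a change was not detectable at this depth. RSPO4 had 0, 19 and 16 counts in the L − N libraries and 0, 4 and 2 in L + N. It had 0 in all H − N libraries and 0, 2 and 2 in H + N. Counts above 4 were seen in 2 libraries, both of the basal group, while the third basal library had none.

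**Figure D3:**
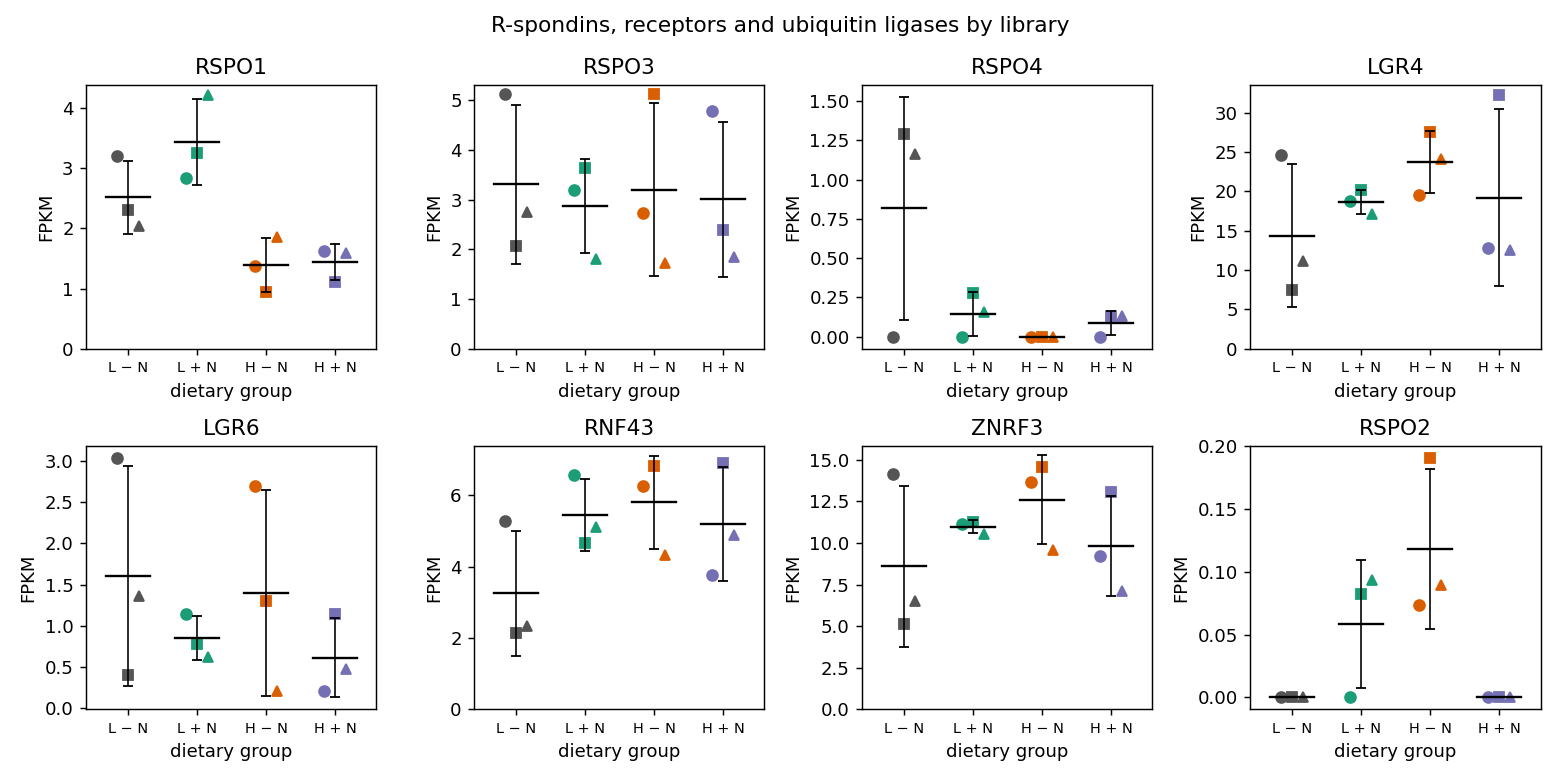
FPKM of the members other than LGR5 and TSPAN8 in each library, by dietary group, on linear axes that differ between genes. Circles, squares and triangles are replicates 1, 2 and 3, horizontal lines the mean and bars the SD of 3 libraries; RSPO1 is lower in both high-fiber groups, and in L − N replicate 1 the levels of LGR4, RNF43 and ZNRF3 exceed those of the other basal libraries.

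Among the receptors, LGR4 at chr2:32871837-32979150 had the highest mean FPKM of all 10 members, 19.0 over the 12 libraries. Its levels were 183, 58.1 and 87.1 CPM under L − N, 129, 144 and 122 under L + N, 139, 202 and 188 under H − N, and 94.5, 228 and 96.3 under H + N. The groups overlapped, mainly through the wide ranges of L − N and H + N. Its log2 difference from L − N was 0.36 under H + N (SE 0.412, edgeR adjusted p = 0.619), 0.27 under L + N (edgeR adjusted p = 0.714) and 0.69 under H − N (edgeR adjusted p = 0.329).

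Within H + N, replicate 2 had the highest LGR4 level of the 12 libraries and the lowest LGR5 level of the supplemented groups, and replicates 1 and 3 had high LGR5 with less LGR4. With 3 libraries this is a description.

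LGR6, at chr10:24358946-24454430, marks stem cells of the skin and was the least abundant receptor of the 3 in mean FPKM over all libraries (1.12). Its levels were 17.7, 2.45 and 8.40 CPM under L − N, 6.21, 4.37 and 3.47 under L + N, 15.0, 7.49 and 1.24 under H − N, and 1.19, 6.36 and 2.88 under H + N. Libraries of the same group differed by as much as groups did. The log2 difference of H + N from L − N was −1.44 (SE 0.859, edgeR adjusted p = 0.302).

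Both ubiquitin ligases are negative feedback regulators that Wnt signaling itself induces. RNF43, at chr12:34631574-34695021, had 28.0 CPM in L − N replicate 1, at most 13.2 CPM in the other basal libraries, and 32.5, 23.9 and 25.9 CPM in L + N. It had 31.7, 35.9 and 24.1 CPM in H − N and 19.8, 35.1 and 27.0 CPM in H + N. The only basal library within the range of the others was L − N replicate 1. The log2 differences from L − N were 0.62 under H + N (SE 0.320, edgeR adjusted p = 0.232), 0.63 under L + N (SE 0.320, edgeR adjusted p = 0.225) and 0.79 under H − N (SE 0.321, edgeR adjusted p = 0.160).

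ZNRF3, at chr14:46092000-46241327, had 120, 46.1 and 58.7 CPM under L − N, 88.3, 92.1 and 85.5 under L + N, 111, 123 and 85.3 under H − N, and 78.0, 106 and 62.8 under H + N. L − N replicate 1 was again well above the other basal libraries. The log2 difference from L − N was 0.14 in H + N (SE 0.309, edgeR adjusted p = 0.814) and 0.50 in H − N (SE 0.310, edgeR adjusted p = 0.340).

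These values turned on L − N replicate 1. Without it, RNF43 was called in all 3 comparisons against L − N, at 1.12 under H + N (SE 0.260, edgeR adjusted p = 0.0237), 1.13 under L + N (edgeR adjusted p = 0.0219) and 1.28 under H − N (edgeR adjusted p = 0.0108). ZNRF3 (1.02, edgeR adjusted p = 0.0154) and LGR4 (1.28, edgeR adjusted p = 0.0466) were called in H − N alone. RSPO4 passed the filter in that fit only through the 2 basal libraries where it is high, so its result there is not read as a change.

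Of the 7 members tested in the full fit, 2 were then called under H + N, 2 under L + N and 4 under H − N. The share of all genes called also grew without that library, to 6.09%, 5.85% and 7.19%. TSPAN8 was called in all 3 with and without it.

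**Figure D4:**
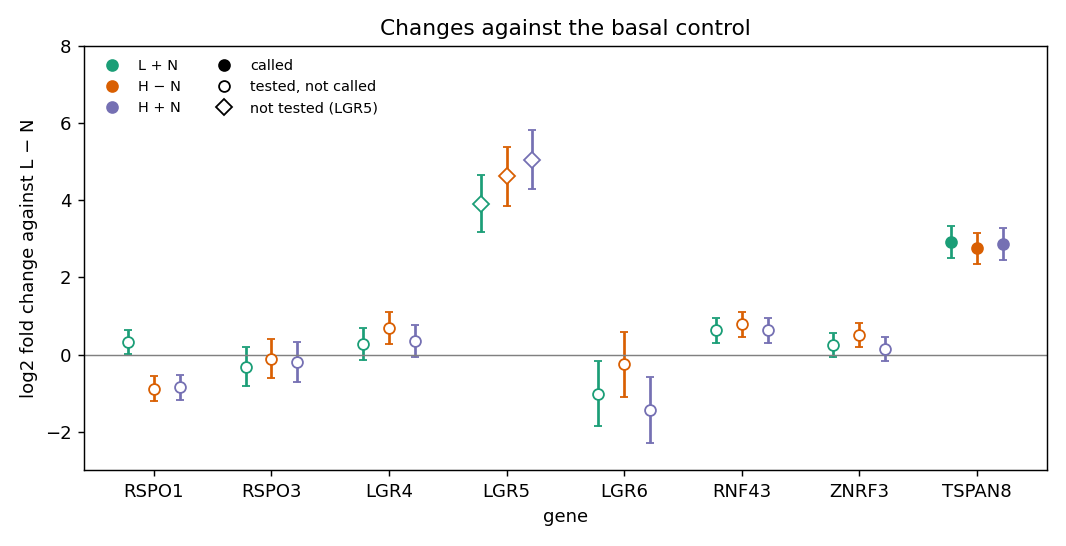
Log2 fold change of the 8 members that passed the filter, in L + N, H − N and H + N against L − N, with bars of 1 SE. The SE was derived from the F statistic of the edgeR fit to 12 libraries. Filled symbols passed the call, open circles did not, and diamonds are LGR5, which was not tested; TSPAN8 is the only filled gene.

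Between the supplemented groups no member was called. In H + N against H − N the edgeR test called 0 of 7 members, where 0% of all genes were called. At an unadjusted p under 0.05 there were also 0, against 8.67% of all genes, and DESeq2 called 0 members and 25 genes in all. In H + N against L + N it called 0 of 7, where 0% of genes were called. RSPO1 alone was at an unadjusted p under 0.05, against 4.68% of all genes, and DESeq2 called 0 members and 2 genes in all.

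In H − N against L + N the edgeR count was 0 of 7, where 0% of genes were called, with 1 member (RSPO1) at an unadjusted p under 0.05. DESeq2 called it (log2 difference −1.23, adjusted p = 0.0122). Over all genes, 17.8% were at such a p, and DESeq2 called 287. For the fiber by NCG interaction the edgeR count was 0 of 7 members and 0% of genes. TSPAN8 was at an unadjusted p under 0.05 there, and DESeq2 called it (log2 value −2.81, adjusted p = 0.00155), where 12.8% of all genes were at such a p and DESeq2 called 184.

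The other genes of the Wnt pathway were taken as lists by role. Of 15 tested genes for Wnt ligands and their release, 1 was called in H + N against L − N, where 3.58% of all genes were. WNT6, a Wnt ligand of epithelia, was at 1.59, 3.82 and 1.95 CPM in L − N and at 11.6, 6.46 and 29.5 CPM in H + N. The ranges did not overlap, as was so for 28% of all genes. WNT6 rose by 2.68 on the log2 scale (SE 0.634, edgeR adjusted p = 0.0313), and the call held in 8 of 12 fits that left out 1 library. The list's median in that comparison was 0.05, against 0.02 for all genes.

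Frizzled and LRP receptors (11 tested) and the cytoplasmic and nuclear parts of the pathway from Dishevelled to beta-catenin and TCF (17 tested) gave 0 edgeR calls in each comparison. Over all genes, 0% to 3.99% were called in these comparisons, so 0 calls in lists this small is near that share. In H + N against L − N the medians of these lists were −0.31 and −0.05 on the log2 scale, against 0.02 for all genes.

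Of 16 tested beta-catenin targets and genes of LGR5-positive cells, 2 were called higher in H + N against L − N and 1 in H − N. In these comparisons 3.58% and 2.91% of all genes were called. EPHB2, a receptor tyrosine kinase that positions cells in crypts, was at 13.4, 6.96 and 4.77 CPM under L − N, 22.1, 19.0 and 36.2 under H + N and 35.1, 28.0 and 32.3 under H − N. It rose by 1.62 in H + N (SE 0.346, edgeR adjusted p = 0.0254) and by 1.93 in H − N (SE 0.348, edgeR adjusted p = 0.0205). Leaving out 1 library kept these calls in 8 and 9 of 12 fits.

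AXIN2, a feedback inhibitor widely used as a readout of beta-catenin, was at 141, 77.4 and 72.5 CPM in L − N and at 185, 146 and 370 CPM in H + N. It rose by 1.27 (SE 0.337, edgeR adjusted p = 0.0443), a call kept in 3 of 12 fits with 1 library left out. In H − N it was at 226, 193 and 250 CPM, with a log2 value of 1.20 that edgeR did not call (SE 0.337, adjusted p = 0.0629). DESeq2 called it, as did 3 of the 12 fits. AXIN2 overlaps CEP112 on the same strand over 2925 bp. The median of the list was 0.24 in H + N and 0.13 in H − N, against 0.02 and 0.03 for all genes.

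**Figure D5:**
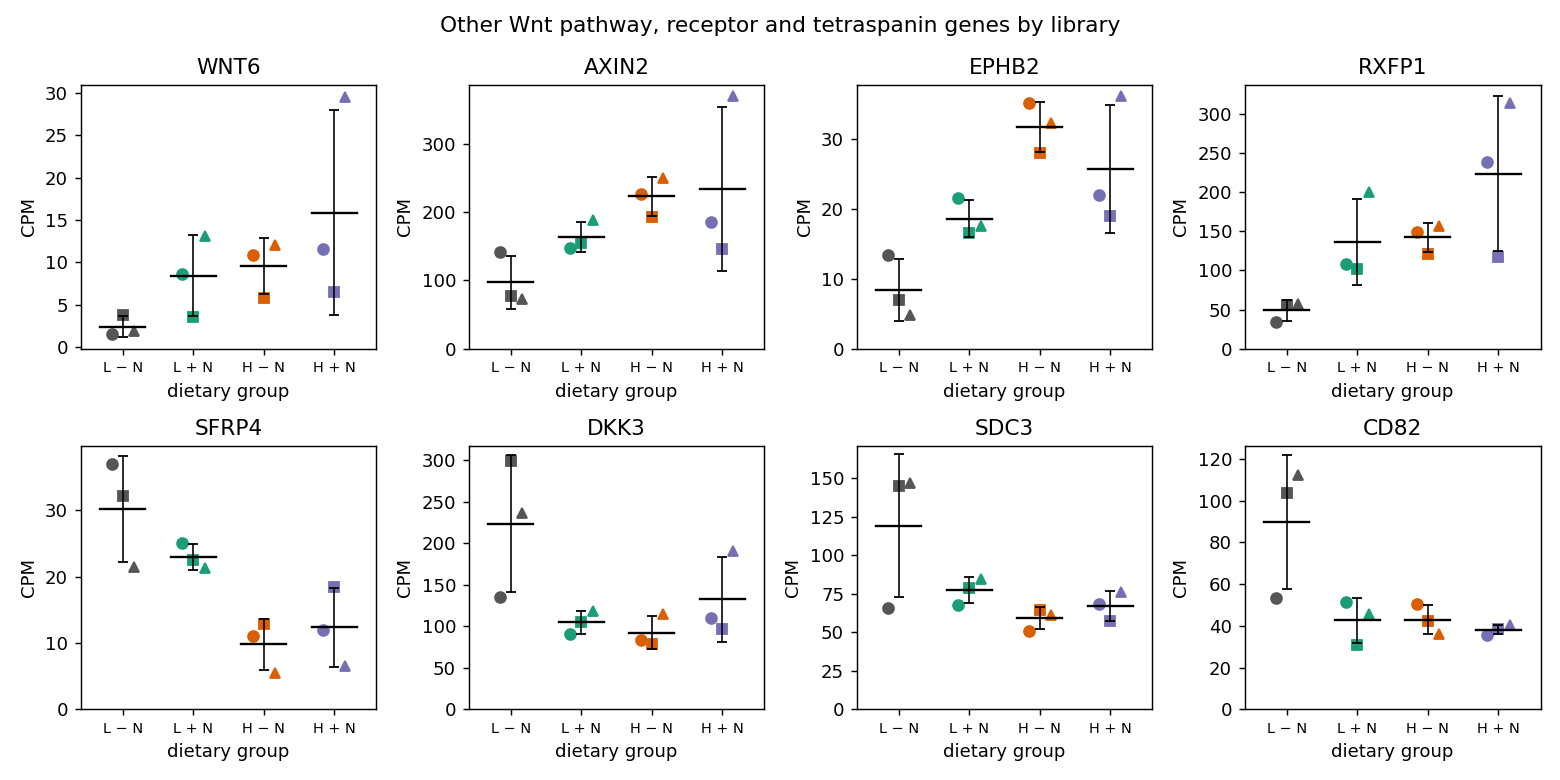
CPM of 8 genes from the other pathway lists in each library, by dietary group, on linear axes that differ between genes. Circles, squares and triangles are replicates 1, 2 and 3, horizontal lines the mean and bars the SD of 3 libraries; WNT6, EPHB2 and RXFP1 have their lowest means in L − N, and SFRP4 is lower in both high-fiber groups.

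Of 12 tested genes listed as secreted Wnt inhibitors, 1 was called lower in L + N and 2 in H − N, where 3.99% and 2.91% of all genes were called. Whether each listed gene inhibits Wnt signaling in this tissue was not tested. DKK3, a Dickkopf family member, was at 135, 299 and 236 CPM under L − N, 91.2, 105 and 119 under L + N and 83.5, 78.4 and 115 under H − N. Its log2 change was −1.09 in L + N (SE 0.307, edgeR adjusted p = 0.0483) and −1.28 in H − N (SE 0.309, edgeR adjusted p = 0.0409). These calls were kept in 4 and 3 of 12 fits that left out 1 library.

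SFRP4, which binds Wnt proteins outside the cell, was at 37.0, 32.1 and 21.5 CPM in L − N and between 5.52 and 12.8 CPM in H − N. It changed by −1.62 there (SE 0.379, edgeR adjusted p = 0.0372), a call kept in 3 of 12 such fits. In H + N its log2 value was −1.28 (edgeR adjusted p = 0.0575), which edgeR did not call and DESeq2 did. The list's median was −0.50 in H − N, against 0.03 for all genes.

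Heparan sulfate proteoglycans are cell surface proteins that hold Wnt and R-spondin proteins. Of 9 tested, SDC3 alone was called lower in H − N, where 2.91% of all genes were called. Its log2 change was −1.01 (SE 0.258, edgeR adjusted p = 0.0473, kept in 2 of 12 fits). Its CPM in L − N replicate 1 (65.6) was far below the other basal libraries (145 and 146) and close to the H − N range of 51.0 to 64.7.

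Of the 3 tested relatives of the LGR receptors, RXFP1, the receptor for the pregnancy hormone relaxin, rose in each group against L − N, where 2.91% to 3.99% of all genes were called. It was at 33.7, 55.9 and 57.2 CPM under L − N, 108, 101 and 200 under L + N, 150, 121 and 156 under H − N, and 238, 118 and 314 under H + N. Its log2 change was 2.19 under H + N (SE 0.371, edgeR adjusted p = 0.0158), 1.48 under L + N (SE 0.363, edgeR adjusted p = 0.0294) and 1.54 under H − N (SE 0.364, edgeR adjusted p = 0.0384). Averaged over both fiber levels, its NCG effect was 1.07 (SE 0.254, edgeR adjusted p = 0.0297), where 1.8% of all genes were called. That average joined the 1.48 on low fiber with 0.65 on high fiber (H + N against H − N, SE 0.355, edgeR adjusted p = 0.625), which was not called. Leaving out 1 library kept the first 3 calls in 10, 7 and 4 of 12 fits.

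The other 24 tetraspanins tested did not include a gene called higher against L − N. Without regard to calls, 4 of them had a higher level in H + N, 3 in L + N and 7 in H − N. Of all genes tested, 51.65%, 47.74% and 53.48% were higher there. CD82 was called lower in all 3 comparisons, and TSPAN2 in 1 of them, where 2.91% to 3.99% of all genes were called. CD82 had log2 changes of −1.23 for H + N (SE 0.267, edgeR adjusted p = 0.0262), −1.07 for L + N (edgeR adjusted p = 0.0305) and −1.06 for H − N (edgeR adjusted p = 0.0447). Leaving out 1 library kept these calls in 8, 8 and 2 of 12 fits. L − N replicate 1 had 53.3 CPM of it, against 104 and 112 CPM in the other basal libraries and 30.7 to 51.7 CPM in the supplemented groups. TSPAN2 fell by 1.83 in H − N (SE 0.409, edgeR adjusted p = 0.0329, kept in 7 of 12 fits).

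Some of these pathway calls also changed without L − N replicate 1, as more genes were called in all. AXIN2 was then called in all 3 groups, at 1.64 for H + N (edgeR adjusted p = 0.0148), 1.12 for L + N (edgeR adjusted p = 0.0497) and 1.57 for H − N (edgeR adjusted p = 0.0135). EPHB2 was also called in L + N (1.66, edgeR adjusted p = 0.00951). The same fit called SDC3 (−1.12, edgeR adjusted p = 0.00282) and DKK3 (−1.01, edgeR adjusted p = 0.0390) in H + N.

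Other calls were lost without that library. WNT6 in H + N was then at 2.45 (edgeR adjusted p = 0.0544), and RXFP1 at 1.27 in L + N (edgeR adjusted p = 0.0582) and 1.33 in H − N (edgeR adjusted p = 0.0507).

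The genes whose pattern over the 12 libraries was closest to LGR5 were ranked by the root-mean-square difference of log2 CPM, each gene centred on its own mean, among 14264 genes with a symbol. The 5 nearest were SLC26A4 (1.02), TSPAN8 (1.05), COL23A1 (1.06), MOXD1 (1.06) and GDA (1.09). The libraries share depth and cell content, so these distances are a description. RNF43 was the nearest of the other members, at rank 1349, and LGR6 the farthest, at rank 14025.

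SLC26A4, the anion exchanger pendrin, had means of 0.216 ± 0.0770 CPM under L − N, 2.59 ± 2.42 under L + N, 13.2 ± 11.0 under H − N and 14.1 ± 9.72 under H + N (SD, n = 3). COL23A1, a transmembrane collagen, had 9.77 ± 2.24 CPM in L − N and its highest mean, 108 ± 53.6, in L + N. Like LGR5, both were lowest in the basal group, a trait largely set by choosing them as nearest to its pattern. Unlike LGR5, COL23A1 had its highest mean without added fiber.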

How the data were processed

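The authors deposited 1 table of read counts and FPKM for 20674 genes in 12 endometrium libraries. Per the submitters' processing notes, reads were handled with fastp 0.22.0, HISAT2 2.1.0 and HTSeq 0.9.1 on Sscrofa11.1. The strand and overlap settings of the counting are not given in the sources used here. The deposited counts were used for all tests, and the deposited FPKM only to compare levels between genes. Groups were read from the letters of the sample titles (H or L for fiber, N for NCG), and replicate numbers from the same titles.

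Genes were filtered with filterByExpr, scaled by TMM and fitted in edgeR 4.0.16 (R 4.3.3, limma 3.58.1) with 1 mean per group over all 12 libraries, leaving 8 residual degrees of freedom. CPM were computed from the deposited counts with TMM-scaled library sizes. Calls needed an adjusted p under 0.05 and an absolute log2 fold change over 1. Each SE of an edgeR value is its absolute log2 fold change divided by the square root of the quasi-likelihood F statistic. This holds for LGR5 too, so its SE is no separate estimate of spread. Alternatives were DESeq2 1.42.0, RLE scaling, no filter, a mean of at least 1 CPM, the adjusted p alone, only the 2 groups compared, a replicate block and leaving out each library. The script was tested on simulated data. The depth per library was 14369781 to 19309724 counts, and the floor was set at 3 counts, which covers counting error only.

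Named genes were the 10 members, genes overlapping them, the 5 nearest to LGR5 (prior count 2), and from each pathway list at most 4 called genes per comparison by smallest adjusted p. Members and lists were chosen with earlier results of these data known. Coordinates are those of the table, and all 10 members had the same start and end in the RefSeq gene table.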

Additional observations from a re-analysis of the deposited data

How the results depend on the processing

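Of the tested member values under other settings, none that was called changed direction, and 65 that were not called changed sign. Fitting only the 2 groups compared gave 0 members called in H + N against L − N and 0 in H − N against L − N, as the adjusted p of TSPAN8 became 0.0516 and 0.0904 in edgeR's test at log2 values of 2.85 and 2.73. That setting leaves fewer libraries in the fit and called 87 and 3 of all genes there. DESeq2 called 1 member in H − N against L + N, 2 for the fiber effect and 1 for the interaction, where edgeR called 0. Over all genes DESeq2 called 287, 290 and 184 there, against 0, 4 and 0 with edgeR. It called 988 genes in H + N against L − N, 883 in L + N and 913 in H − N, against 549, 613 and 446 with edgeR. Among the named pathway genes, DESeq2 alone called SFRP4 and TSPAN2 in H + N and EPHB2 and WNT6 in L + N. In H − N it alone called WNT6 and AXIN2. The cause was not tested.

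Leaving out 1 library gave 0 to 3 members called in H + N against L − N, 1 to 2 in L + N, 0 to 5 in H − N, 0 to 1 for the fiber effect and 0 to 1 for the interaction. The calls over all genes moved with them, from 1 to 948 in H + N, 143 to 911 in L + N and 0 to 1120 in H − N against L − N. The highest counts in H + N and H − N include RSPO4, which passed the filter there through the basal libraries where it is high. The highest counts all came without L − N replicate 1, and for the fiber effect also without H + N replicate 2. TSPAN8 for the fiber effect then had adjusted p of 0.0275 and 0.0492 in edgeR's test. Of the 5 genes nearest to LGR5, 3 were shared with a prior count of 0.5 and 4 with RLE scaling.

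Same-numbered libraries did not deviate together: over 18 pairs r ran from −0.322 to 0.283, with 3 over 0.1, and 3 libraries correlated best with their own number. The numbers were therefore not taken as pairs. With the replicate block, the members called were 1 in H + N, 1 in L + N and 1 in H − N against L − N, as without it, and no other member count changed.

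LGR5 and TSPAN8 rest on 15 to 32 and 6 to 13 counts in the basal libraries, so their folds depend on few reads. TSPAN8 also passed the filter only through the supplemented groups. RSPO2 and RSPO4 could not be judged at this depth.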
